A study of Mus musculus with 8 samples.

Results

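The mitosis genes described here are 50 genes that encode the machinery of cell division, chosen by name as spindle, kinetochore, mitotic kinase and cytokinesis genes. On the arrays 49 of the 50 had a named feature, 48 passed the filter on dim features, and these 48 were among 17234 genes tested. Ccnb1 was not among the named features and was not analysed here, and Aurkb was measured but dim. Pimreg appears on the platform under its older symbol Fam64a. The brightest feature of each gene, by its mean over all 8 arrays, stands for the gene.

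Whole lungs of newborn C57Bl/6J mice were profiled on 8 Agilent arrays with 1 dye, and each deposited value was a log2 intensity. All pups were kept in 85% oxygen in a chamber from postnatal day 0 to day 3. The 4 arrays titled TG carry the genotype label Fgf10 +/-, a heterozygous loss of the gene for a lung growth factor, and the 4 arrays titled WT are wild-type. The labels do not say what TG stands for. No array came from pups in room air, so every difference is between genotypes under high oxygen. Nothing in the labels ties the pups to separate litters. The p-values rest on the spread among these 4 and 4 samples and on a variance trend that limma drew from all genes tested.

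When a cell enters mitosis, cyclin-dependent kinase 1 with cyclin A or B starts a programme in which Aurora and Polo-like kinases build the spindle, kinetochores attach chromosomes to microtubules, and the spindle checkpoint delays separation until all are attached. The anaphase-promoting complex (APC/C) then marks cyclin B and securin for destruction, chromosomes part, and the cell is split by cytokinesis. Most of these genes are transcribed in G2 and M phase, and in the newborn lung they are read mainly from cells that are dividing as the organ grows. Their shared timing is known to depend on 2 promoter elements: the cell cycle genes homology region (CHR), which binds the MuvB complex together with repressors in resting cells or with B-MYB and FOXM1 in dividing cells, and the CCAAT box, which binds NF-Y.

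Promoter sequence was taken from RefSeq, assembly GRCm38.p6, as the window from 250 bases before to 50 bases after each gene's start. It held 44 windows for 42 of the 50 genes, Ccnb1 among them, and the remaining 8 were Aurkb, Ccna2, Foxm1, Incenp, Kif20a, Pbk, Pimreg and Tpx2. Ect2 and Prc1 each had 2 windows that overlap, and a match in both was counted in each. The CHR was searched as the letters TTTGAA and the CCAAT box as the letters CCAAT, each on both strands, and matches of the 2 motifs can share at most 1 base. The 120 bases before the start are shown for 4 genes that hold both motifs in this stretch (Cdc20 and Ube2c of the APC/C axis, Cdk1 and Top2a) and for 2 that hold neither in it (Birc5 and Pttg1). Capitals mark the matches in either orientation, so that TTCAAA and ATTGG are matches on the opposite strand.
Cdc20, chr4:118437344-118437463, minus strand: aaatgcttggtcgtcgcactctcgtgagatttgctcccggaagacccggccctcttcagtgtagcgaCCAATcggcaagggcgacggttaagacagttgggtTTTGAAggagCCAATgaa
Cdk1, chr10:69352913-69353032, minus strand: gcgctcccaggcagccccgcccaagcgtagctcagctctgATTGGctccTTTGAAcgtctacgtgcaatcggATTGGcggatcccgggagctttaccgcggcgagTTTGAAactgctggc
Top2a, chr11:99024190-99024309, minus strand: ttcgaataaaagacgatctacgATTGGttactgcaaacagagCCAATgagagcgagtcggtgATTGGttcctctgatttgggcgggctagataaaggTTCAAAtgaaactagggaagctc
Ube2c, chr2:164769809-164769928, plus strand: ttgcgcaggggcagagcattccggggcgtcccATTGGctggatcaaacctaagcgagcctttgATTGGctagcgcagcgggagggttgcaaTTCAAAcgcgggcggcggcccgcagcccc
Birc5, chr11:117849117-117849236, plus strand: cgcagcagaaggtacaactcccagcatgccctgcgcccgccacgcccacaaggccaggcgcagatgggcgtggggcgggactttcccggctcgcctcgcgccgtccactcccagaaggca
Pttg1, chr11:43425982-43426101, minus strand: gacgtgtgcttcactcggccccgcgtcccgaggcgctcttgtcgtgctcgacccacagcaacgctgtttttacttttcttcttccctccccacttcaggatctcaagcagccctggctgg

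Of the 44 windows, 34 (77.3%) held a CHR match, against 17.9% of all 32851 windows of this length in the table. A CCAAT match was in 34 (77.3%) of them, against 37.4% of all windows, and both were in 30 (68.2%), against 6.95%. These matches are counts of letters and say nothing of whether a factor is bound. A window without a match does not show that the gene lacks the element, which may lie outside the window. The CHR matches lay near the start: 32 of 44 matches (72.7%) began within 50 bases of it, against 25.3% of the matches in all windows. CCAAT matches lay mostly before the start, 78 of 82, with a median position of -67.5 bases, and 25 windows held at least 2. The letters are no common feature of every gene of mitosis: of 135 windows found for 114 of the 134 other mitosis genes listed below, 34.8% held a CHR match and 23.7% held both motifs, and of 34 windows found for 29 of 37 DNA replication genes 11.8% and 8.82%.

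**Figure D1:**
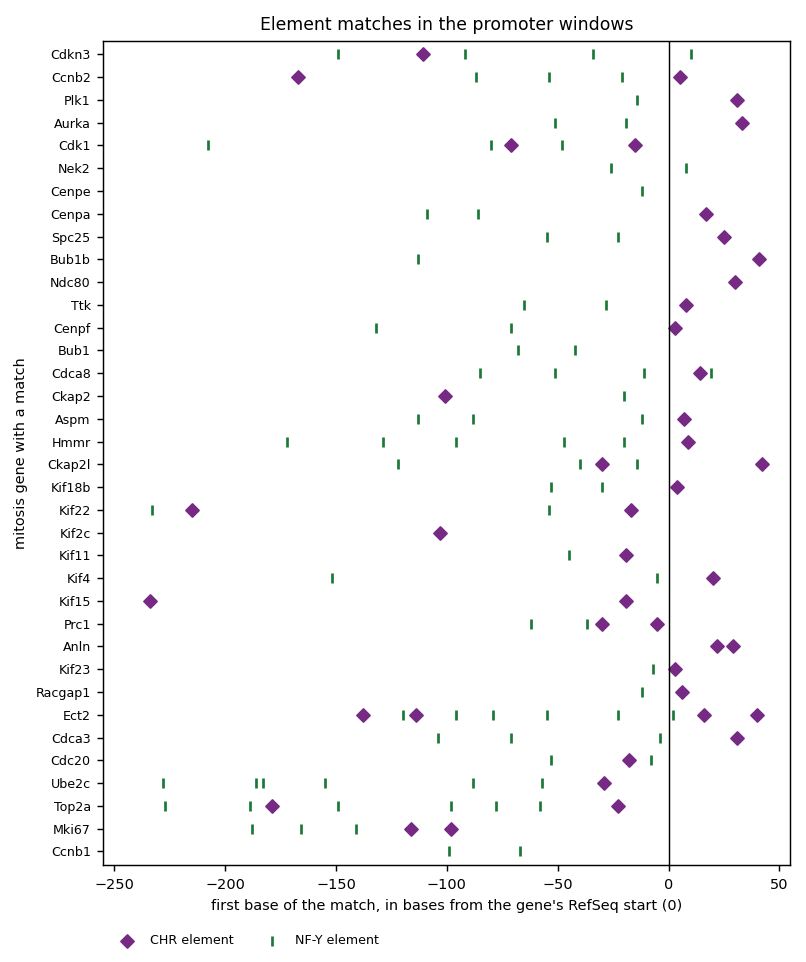
Positions of the element matches in the promoter windows of the mitosis genes, with the distance of the first base of each match from the RefSeq start on the x axis (in bases) and 1 gene per row. Diamonds are CHR matches and vertical ticks are CCAAT matches (labelled NF-Y element); genes without a match in their window are not drawn, and Ect2 and Prc1 show the matches of both their windows. Most diamonds sit within 50 bases of the start, 32 of 44, and most ticks before it, 78 of 82.

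The 8 arrays were alike as a whole, with Pearson correlations over all complete features of 0.974 to 0.980 within TG, 0.971 to 0.977 within WT and 0.969 to 0.982 between the groups. The tissue label fitted the markers: over the 8 arrays Sftpc, the surfactant protein of alveolar type 2 cells, read between 15.98 and 15.99, at the top of the scale, and Ager of alveolar type 1 cells between 12.02 and 12.55. Fgf10 itself read 7.81, 7.99, 8.10 and 8.28 on TG1 to TG4 and 7.53, 8.16, 7.91 and 7.64 on WT1 to WT4, with a difference of 0.23 ± 0.16 (SE) and adjusted p = 0.65 in limma. Where its feature lies relative to the disrupted part of the gene is unknown, so Fgf10 does not check the genotype labels, and every direction below rests on those labels. Across all 17234 genes the median difference between the groups was 0.01 on the log2 scale, and 48.7% of genes had a negative difference.

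Of the 48 mitosis genes tested, 26 fell in the arrays labelled Fgf10 +/- and 22 did not pass the test. All 48 had a negative difference, from -2.21 for Ckap2 to -0.29 for Nek2, with a median of -1.19, and 30 were at least 2-fold lower. For Ttk, Cenpf and Kif15 the TG mean was under the filter level of 2.76. Passing the filter therefore fixed their negative sign, and they add nothing to this count. The 26 had an adjusted p below 0.05 in limma, adjusted over all genes tested, while 0.569% of all genes were called lower. None was called higher in limma, and 0 were higher at an unadjusted p below 0.05; 0.226% of all genes were called higher. An unadjusted p below 0.05 in the lower direction was reached by 40 of the 48 and by 5.79% of all genes. In 32 of the 48 every WT array lay above every TG array, against 3.51% of all genes, and these 32 included all 26 that were called. The 26 made up 26.5% of the 98 genes called lower on the array. Whole lung was measured, so fewer dividing cells and less RNA per cell cannot be told apart.

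These calls depended on how limma modelled the variance and on single arrays. Without the variance trend over intensity limma called 0 of the 48, with a smallest adjusted p of 0.13, although 40 still had an unadjusted p below 0.05; under that setting 1 gene, Lrtm2, was called on the whole array. Leaving out WT2 left 6 calls, leaving out WT4 12 and leaving out TG3 16, and leaving out WT1 gave 31. In all 8 of these runs all 48 differences stayed negative, and 6 genes were called in every run: Ccnb2, Tpx2, Ckap2, Kif22, Prc1 and Anln. These runs used the brightest features, and Tpx2 lost its call with the mean of its features.

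**Figure D2:**
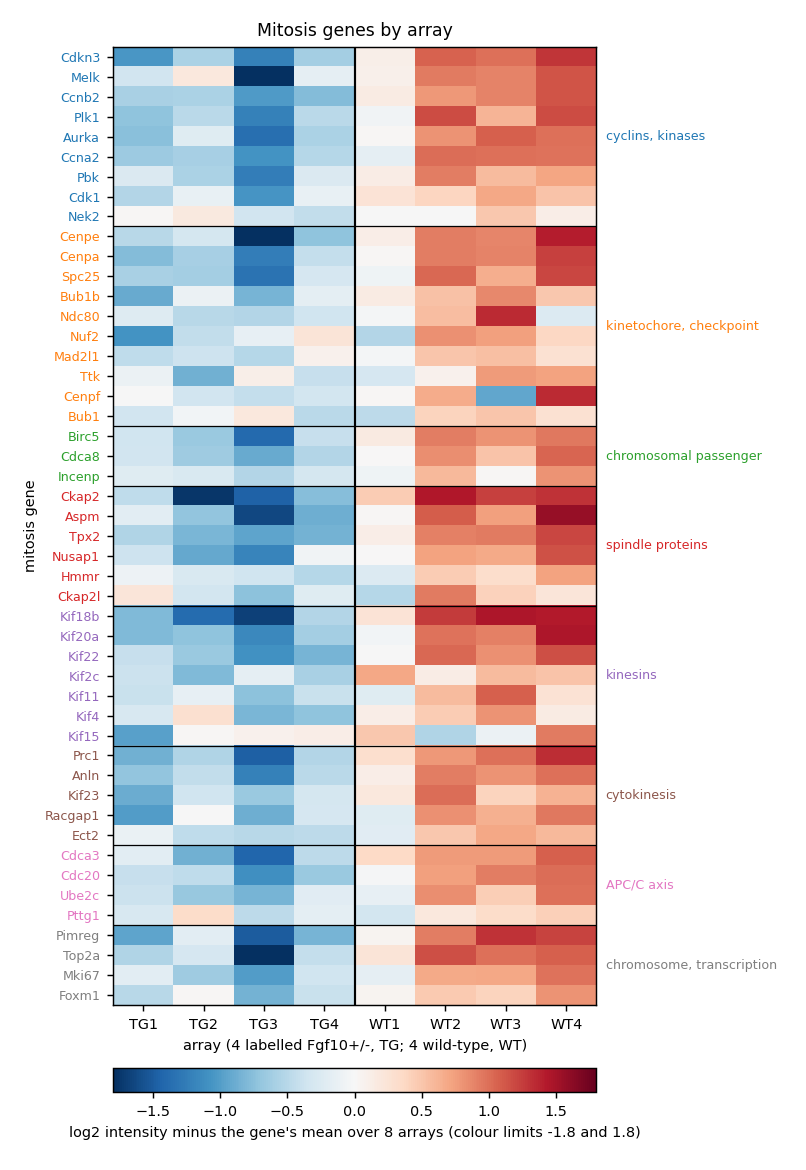
Log2 intensity of the 48 tested mitosis genes on the 8 arrays, each gene centred on its own mean, with genes in rows grouped by role and arrays in columns. Red is above and blue below the gene's mean; the TG columns are mainly blue, TG3 most of all, the WT2, WT3 and WT4 columns mainly red, and WT1 lies between.

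Arrays of a group differed in the same order over many genes. The mean over the 48 genes of each array's value minus the gene's mean, called the mitosis score here, was -0.49, -0.45, -0.97 and -0.43 on TG1 to TG4 and 0.02, 0.73, 0.71 and 0.88 on WT1 to WT4. The 3 arrays WT2 to WT4 lay well above all TG arrays, WT1 lay between the groups, and TG3 lay below the other TG arrays. WT1 was the lowest WT array in 44 of the 48 genes and TG3 the lowest TG array in 37. WT1 was nevertheless above the highest TG array in 35 genes, against 44 for WT2, 45 for WT3 and 45 for WT4. With WT1 and TG3 both left out, 28 of the 48 were called and the median was -1.22.

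Among the cyclins, mitotic kinases and their regulators, 5 of the 9 tested fell, the cyclins Ccna2 and Ccnb2, the Aurora kinase Aurka, the Polo-like kinase Plk1 and the phosphatase Cdkn3, and the median over the 9 was -1.45. Ccnb2, cyclin B2, a partner of cyclin-dependent kinase 1, had both the smallest p and the brightest feature: it read 8.51, 8.53, 8.07 and 8.31 on TG1 to TG4 and 9.25, 9.88, 9.99 and 10.23 on WT1 to WT4. Every TG array was below every WT array, and the difference was -1.48 ± 0.18 (SE), 2.79-fold lower, with adjusted p = 0.0038 in limma. Plk1, which drives entry into mitosis, centrosome maturation and cytokinesis, read 7.82, 8.06, 7.33 and 8.05 on TG1 to TG4 and 8.47, 9.72, 9.16 and 9.71 on WT1 to WT4, a difference of -1.45 ± 0.25 (adjusted p = 0.017 in limma). Here too the groups did not overlap. Cdk1, the kinase at the head of the programme, was not called: it read 5.08, 5.47, 4.54 and 5.47 on TG1 to TG4 and 5.85, 5.99, 6.30 and 6.12 on WT1 to WT4, and its difference was -0.92 ± 0.26 with adjusted p = 0.15 in limma. Its groups did not overlap either. Plk1 and Cdk1 were picked after their values were seen.

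Of the other 3 kinases that were not called, Pbk, a mitotic kinase picked after its values were seen, came closest to the threshold: it read 6.15, 5.83, 5.16 and 6.14 on TG1 to TG4 and 6.53, 7.32, 6.97 and 7.12 on WT1 to WT4. Every TG array was below every WT array, and the difference was -1.17 ± 0.25 with adjusted p = 0.054 in limma. Nek2, a kinase of centrosome separation, had the largest p of the group: it read 6.93, 7.08, 6.55 and 6.46 on TG1 to TG4 and 6.89, 6.90, 7.38 and 7.02 on WT1 to WT4. The TG and WT values were mixed, with a difference of -0.29 and a 95% interval from -0.71 to 0.13. Melk, a kinase abundant in dividing progenitor cells and picked after its values were seen, had as large a difference as some called genes, -1.53, but a wide spread. It read 5.55, 6.08, 3.15 and 5.73 on TG1 to TG4 and 5.98, 6.83, 6.79 and 7.03 on WT1 to WT4. TG3 was far below the other TG arrays, and as each array was left out in turn the difference ran from -1.85 to -0.87.

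Kinetochore and checkpoint genes had the median nearest to 0 of the 8 roles, -0.76, with 3 of 10 called lower. Kinetochores are the protein plates that couple the centromere to spindle microtubules. The called genes were Cenpa, the histone H3 variant that marks the centromere, Cenpe, a kinesin that carries chromosomes to the spindle equator, and Spc25, a subunit of the microtubule-binding NDC80 complex. Cenpa read 6.86, 7.05, 6.39 and 7.21 on TG1 to TG4 and 7.66, 8.56, 8.53 and 8.88 on WT1 to WT4, a difference of -1.53 ± 0.25 (adjusted p = 0.013 in limma). Spc25 read 9.12, 9.09, 8.37 and 9.41 on TG1 to TG4 and 9.62, 10.74, 10.35 and 10.91 on WT1 to WT4, and its difference was -1.40 ± 0.26 (adjusted p = 0.021 in limma). In both, all TG arrays lay below all WT arrays, and WT1 was the WT array nearest to them. The other NDC80 subunits in the set were not called, with differences of -0.81 for Ndc80 (adjusted p = 0.38 in limma) and -0.71 for Nuf2 (adjusted p = 0.52).

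Cenpf, a large protein of the outer kinetochore, sat near the filter and had the largest p of the group: it read 2.87, 2.53, 2.45 and 2.55 on TG1 to TG4 and 2.90, 3.54, 1.94 and 4.22 on WT1 to WT4. WT3 was the lowest of all 8 arrays and WT4 the highest, and the 95% interval of the difference ran from -1.56 to 0.45. The checkpoint kinase Bub1, picked after its values were seen, gave different answers by feature. Its brightest feature read 5.32, 5.61, 5.86 and 5.18 on TG1 to TG4 and 5.19, 6.06, 6.16 and 5.94 on WT1 to WT4, a difference of -0.35 with a 95% interval from -0.93 to 0.23. The other 9 Bub1 features differed by -0.73 to -1.61, and the mean over all 10 was 4.76 ± 0.43 in TG and 5.85 ± 0.37 in WT (mean ± SD, 4 arrays each). On that mean TG3 was lowest, at 4.14, and the highest TG array, at 5.11, lay below the lowest WT array, at 5.30. Bub1 was still not called with the mean of its features (-1.10, adjusted p = 0.12 in limma). Mad2l1, the checkpoint protein that holds back the APC/C, had 3 features, of which the brightest differed by -0.64 and the next by 0.57.

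**Figure D3:**
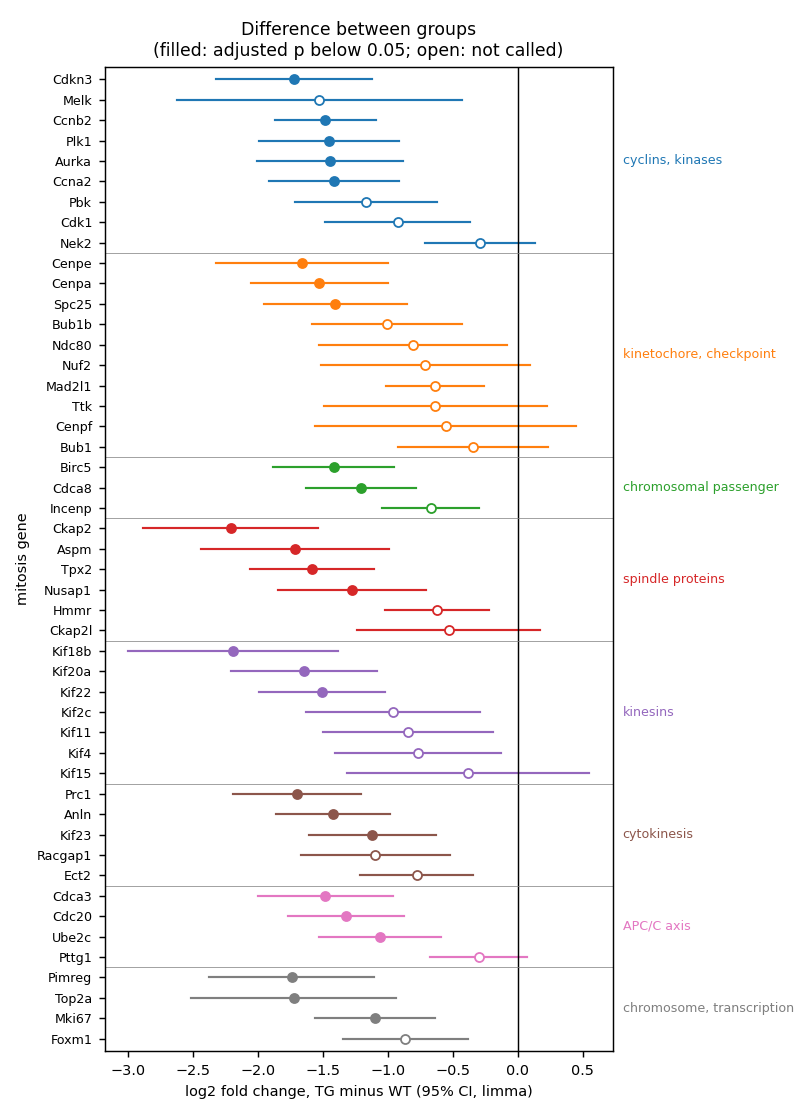
Difference between the groups for each of the 48 tested mitosis genes, as TG minus WT log2 fold change on the x axis with its 95% confidence interval from limma, grouped and coloured by role. Filled points are the 26 genes called lower and open points the 22 not called; all 48 points lie left of 0, from -2.21 for Ckap2 to -0.29 for Nek2, and the intervals of uncalled genes such as Kif15 cross it.

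The chromosomal passenger complex corrects faulty attachments and later directs cytokinesis. Its kinase Aurkb was below the filter, reading 1.86, 2.34, 2.41 and 2.11 on TG1 to TG4 and 1.78, 2.25, 2.07 and 2.16 on WT1 to WT4, and was not tested. With no filter on dim features, 48 of 49 mitosis genes had a negative difference, all but Aurkb. Of the other 3 subunits, Birc5 (survivin) and Cdca8 (borealin) fell and the scaffold Incenp did not pass the test. Birc5 read 9.77, 9.45, 8.73 and 9.71 on TG1 to TG4 and 10.28, 11.05, 10.94 and 11.07 on WT1 to WT4. WT1 stood apart from the other WT arrays yet above all TG arrays, and the difference was -1.42 ± 0.22 (adjusted p = 0.010 in limma). Incenp read 9.39, 9.34, 9.09 and 9.30 on TG1 to TG4 and 9.53, 10.20, 9.63 and 10.43 on WT1 to WT4, a difference of -0.67 ± 0.17 with adjusted p = 0.11 in limma. Its WT1 and WT3 values were close to the highest TG value, but the groups did not overlap.

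Spindle proteins held the gene with the largest difference of the set. Of the 6 tested, 4 fell: Tpx2, which activates Aurora A on spindle microtubules, Nusap1, which bundles microtubules, Ckap2, which binds and stabilises them, and Aspm, which focuses spindle poles. Tpx2 read 6.44, 6.16, 6.03 and 6.13 on TG1 to TG4 and 7.10, 7.89, 7.92 and 8.18 on WT1 to WT4, a difference of -1.58 ± 0.22 (adjusted p = 0.0073 in limma). The TG arrays lay within a narrow band, 6.19 ± 0.17 (mean ± SD), and all WT arrays were above it. The second, dimmer Tpx2 feature differed by -0.40. With the mean of its features Tpx2 was not called (-0.99, adjusted p = 0.13 in limma). Ckap2, picked after its values were seen, read 5.47, 4.18, 4.48 and 5.17 on TG1 to TG4 and 6.39, 7.37, 7.16 and 7.23 on WT1 to WT4, which was 4.63-fold lower in TG. Hmmr, a spindle assembly protein and hyaluronan receptor, was not called. It read 8.08, 7.90, 7.81 and 7.66 on TG1 to TG4 and 7.92, 8.63, 8.48 and 8.89 on WT1 to WT4, and its difference was -0.62 ± 0.19 with adjusted p = 0.18 in limma. WT1 lay inside the TG range. Ckap2l, a spindle protein related to Ckap2, read 5.34, 4.80, 4.38 and 4.91 on TG1 to TG4 and 4.62, 6.05, 5.54 and 5.34 on WT1 to WT4; the groups overlapped, and the 95% interval ran from -1.24 to 0.17.

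The kinesins, motors that slide, cross-link or shorten microtubules, gave 3 calls among 7. Kif22, a chromosome-arm motor, had the smallest p and the brightest feature: it read 8.10, 7.85, 7.43 and 7.68 on TG1 to TG4 and 8.52, 9.55, 9.34 and 9.68 on WT1 to WT4. The groups were apart, with a difference of -1.51 ± 0.22 (adjusted p = 0.0097 in limma). Kif20a, a motor of cytokinesis, differed by -1.65, and Kif18b, which shortens astral microtubules, by -2.19, both called. Kif18b, picked after its values were seen, was dim in TG, reading 3.31, 2.73, 2.43 and 3.59 on TG1 to TG4 and 4.35, 5.38, 5.57 and 5.54 on WT1 to WT4, and was 4.57-fold lower there on this scale. TG2 and TG3 lay below the filter level of 2.76 there. Kif15, a motor that helps to keep the poles apart, was dim throughout, reading 1.88, 2.88, 2.94 and 2.99 on TG1 to TG4 and 3.34, 2.32, 2.75 and 3.80 on WT1 to WT4. TG1 was low, the rest were mixed, and the 95% interval ran from -1.32 to 0.55. The spindle-pole motor Kif11 (-0.84), the chromosome motor Kif4 (-0.77) and the depolymerase Kif2c (-0.96) were not called either.

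Cytokinesis genes act at the midzone and the contractile ring, and 3 of 5 fell: Prc1, which cross-links midzone microtubules, Anln, the ring scaffold anillin, and Kif23, the motor of the centralspindlin complex. Prc1 read 7.90, 8.22, 7.30 and 8.24 on TG1 to TG4 and 9.06, 9.55, 9.76 and 10.09 on WT1 to WT4, a difference of -1.70 ± 0.23, 3.25-fold lower (adjusted p = 0.0051 in limma). WT1 was above all 4 TG arrays by more than the range of TG1, TG2 and TG4. Racgap1, the partner of Kif23 in centralspindlin, had on its brightest feature nearly the same difference (-1.10, adjusted p = 0.087 in limma) as Kif23 (-1.12, adjusted p = 0.039). The second Racgap1 feature differed by -0.50, and the mean of its features by -0.80 (adjusted p = 0.21 in limma). Ect2, the exchange factor that centralspindlin recruits to activate RhoA, had the largest p of the group and read 7.17, 6.83, 6.79 and 6.83 on TG1 to TG4 and 7.09, 7.77, 7.99 and 7.88 on WT1 to WT4. TG1 overlapped WT1, and the difference was -0.78 ± 0.20 with adjusted p = 0.11 in limma.

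Along the APC/C axis 3 of 4 genes fell: the activator Cdc20, the ubiquitin-conjugating enzyme Ube2c and Cdca3, which promotes entry into mitosis and is itself an APC/C substrate. Cdc20 read 8.97, 8.94, 8.28 and 8.73 on TG1 to TG4 and 9.37, 10.13, 10.31 and 10.40 on WT1 to WT4, a difference of -1.32 ± 0.21, 2.50-fold lower (adjusted p = 0.012 in limma). Every WT array was above every TG array. Pttg1, securin, the inhibitor of separase that the APC/C destroys at anaphase, was bright and was not called. It read 11.35, 11.98, 11.17 and 11.46 on TG1 to TG4 and 11.31, 11.83, 11.97 and 12.07 on WT1 to WT4. WT1 was below TG1, TG2 was among the WT values, and the 95% interval ran from -0.68 to 0.07. Birc5 and Pttg1, whose promoter stretches without either motif are shown above, differed by -1.42 and -0.30, and Cdc20, Ube2c, Top2a and Cdk1, with both motifs, by -1.32, -1.06, -1.73 and -0.92. These genes are examples, and all tested mitosis genes with a window are compared below.

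The last 4 genes act on chromosomes or on transcription, and 3 fell. Pimreg, a mitotic regulator that interacts with the clathrin-assembly protein PICALM, had the smallest p: it read 6.38, 7.14, 5.83 and 6.50 on TG1 to TG4 and 7.39, 8.26, 8.63 and 8.54 on WT1 to WT4, a difference of -1.74 ± 0.29 (adjusted p = 0.016 in limma). The groups were apart by a small gap between TG2 and WT1. Mki67, which coats mitotic chromosomes and encodes the Ki-67 antigen used to count cycling cells, read 10.27, 9.83, 9.46 and 10.10 on TG1 to TG4 and 10.31, 11.15, 11.16 and 11.45 on WT1 to WT4, and its difference was -1.10 ± 0.22 (adjusted p = 0.031 in limma). WT1 was level with TG1 to within 0.04. Top2a, the topoisomerase that untangles sister chromatids, was picked after its values were seen and read 6.15, 6.39, 4.50 and 6.26 on TG1 to TG4 and 6.92, 7.84, 7.67 and 7.76 on WT1 to WT4. TG3 was lowest by far, and the difference of -1.73 ± 0.37 had adjusted p = 0.046 in limma. Foxm1, a transcription factor of G2 and M phase genes, read 6.23, 6.75, 5.87 and 6.32 on TG1 to TG4 and 6.78, 7.20, 7.12 and 7.53 on WT1 to WT4, a difference of -0.87 ± 0.22 with adjusted p = 0.10 in limma. Only 0.03 separated its highest TG array from its lowest WT array.

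Of the 22 genes that missed the threshold, 13 had a mean below 6. Of the 32 mitosis genes with a mean of at least 6, 23 were called, against 0.846% of the 10752 genes tested at that level; of the 16 below 6, 3 were called. The median difference also ran with intensity, from -0.59 over the 4 genes below 4 and -0.88 over the 12 between 4 and 6 to -1.36 between 6 and 8 and -1.41 from 8 upward. In 3 of the 4 genes below 4 the TG mean was under the filter level of 2.76 (Ttk 2.56, Cenpf 2.60 and Kif15 2.67), so these passed only through their WT values and the low end of this run rests on them. The median SE fell over the same bins from 0.42 and 0.31 to 0.25 and 0.22. The part of feature intensity in these differences was not tested. Bright features gave no uniform answer, as Pttg1 and Incenp show.

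**Figure D4:**
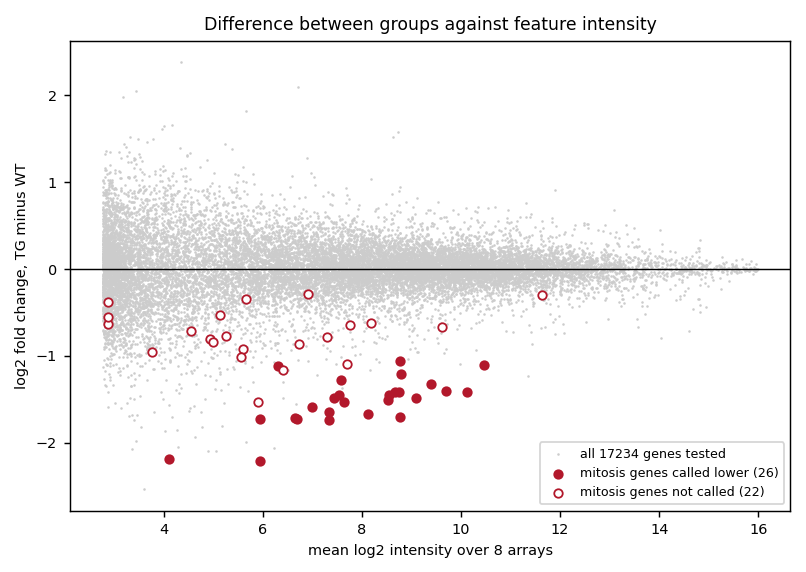
TG minus WT log2 fold change (y axis) against the mean log2 intensity over the 8 arrays (x axis) for all 17234 genes tested (grey) and the mitosis genes (red; filled where called lower, open where not). The 26 called genes lie along the lower edge of the grey cloud, 23 of them at a mean of at least 6, while 3 of the 16 mitosis genes below 6 were called.

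Where a gene had several features, they mostly pointed the same way. The 15 mitosis genes with more than 1 feature had 26 further features, of which 25 were lower in TG and 1, the Mad2l1 feature above, was higher. With the mean of a gene's features in place of the brightest, 21 were called in limma and the median was -1.20.

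Pup sex is not in the labels, and Xist, the RNA of the inactive X chromosome, was not balanced between the groups. Xist read 6.56, 2.63, 1.93 and 6.73 on TG1 to TG4 and 6.29, 6.85, 2.01 and 6.80 on WT1 to WT4, high in 2 TG and 3 WT arrays and low in 2 TG and 1 WT. Eif2s3y, a gene of the Y chromosome, ran the other way. Among the 5 arrays with high Xist the median difference of the mitosis genes was -1.02, with 48 of 48 negative, and among the 3 with low Xist it was -1.51, with 46 of 48 negative. With Xist as a covariate in limma 19 of the 48 were called and the median was -1.13.

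Other genes of mitosis were read from 6 lists by sub-process. Of these 134 genes, 130 were tested and 5 fell. Of the 130, 98 had a negative difference, 47 had an unadjusted p below 0.05 in that direction, and the median was -0.27. Over all genes 0.569% were called lower, 48.7% had a negative difference and 5.79% were lower at an unadjusted p below 0.05 in limma. No gene of this list was called higher in limma, and 1, the transcription factor gene E2f2, was higher at an unadjusted p below 0.05. The 5 were the condensin I subunit Ncapd2 (-0.95 ± 0.17, adjusted p = 0.019 in limma), the spindle-orientation protein Sapcd2 (-1.37 ± 0.24, adjusted p = 0.017), the spindle proteins Spag5 (-1.55 ± 0.29, adjusted p = 0.024) and Knstrn (-0.96 ± 0.18, adjusted p = 0.029), which act together at kinetochores and poles, and the spindle protein Tacc3 (-0.85 ± 0.17, adjusted p = 0.036). Knstrn and Tacc3 were picked after their values were seen. This count was 0 without the variance trend, 2 with the mean of a gene's features, 3 with Xist as a covariate, and 0 without WT2, 0 without WT4, 1 without TG3, 2 with each of the other TG arrays left out in turn, and 13 without WT1.

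By sub-process, kinetochore and centromere genes had a median of -0.48 over 32 tested, with 0 called and 14 lower at an unadjusted p below 0.05 in limma. Over all genes the share lower at that level was 5.79%. Cenpm, of the centromere network, read 2.22, 2.80, 3.33 and 2.12 on TG1 to TG4 and 4.51, 5.14, 3.67 and 4.43 on WT1 to WT4, a difference of -1.82 ± 0.40 (adjusted p = 0.059 in limma). Its TG mean, 2.62, was below the filter level of 2.76, so it was tested only because of its WT values, and the size of its difference is uncertain. Spc24, the NDC80 partner of Spc25, differed by -1.24 ± 0.29 (adjusted p = 0.073 in limma) with groups that did not overlap, and Cenpx, which also serves in DNA repair, by 0.01. Condensin, cohesin and separase genes had a median of -0.19 over 18, with the condensin I subunit Ncaph at -0.57 ± 0.12 (adjusted p = 0.051 in limma) and the cohesin regulator Pds5b at 0.00. Spindle, motor and cytokinesis genes had a median of -0.33 over 32, with Cep55, which recruits the abscission machinery, at -0.04. Kinases and phosphatases of mitotic entry had a median of -0.38 over 16, with 0 called and 6 at an unadjusted p below 0.05 in limma. Among these Cdca2, a phosphatase targeting subunit, differed by -1.28 ± 0.34 (adjusted p = 0.12), cyclin F, Ccnf, by -0.91 ± 0.30 (adjusted p = 0.23) and Ensa, an inhibitor of the phosphatase PP2A, by -0.02.

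The lists of APC/C genes and of transcription complexes had medians near 0, with members on both sides. The 17 APC/C genes had a median of -0.05, 9 negative and 8 positive, with 0 called. Against 5.79% of all genes, 2 were lower at an unadjusted p below 0.05 in limma. These were Fbxo5, the APC/C inhibitor Emi1 (-0.57 ± 0.20, adjusted p = 0.28 in limma), and Ube2s, the chain-elongating enzyme (-0.73 ± 0.29, adjusted p = 0.36), while the core subunit Cdc16 differed by 0.01. The 15 MuvB, MYB and E2F genes had a median of -0.07, 10 negative and 5 positive, with 0 called, 4 lower and 1 higher at an unadjusted p below 0.05 in limma. The atypical repressors E2f7 (-0.70 ± 0.21, adjusted p = 0.17 in limma) and E2f8 (-0.77 ± 0.28, adjusted p = 0.29) led them, and the MuvB subunit Lin9 differed by -0.03.

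DNA replication genes, transcribed one phase earlier in the cycle, gave 0 calls among 35 tested, with 9 lower and 0 higher at an unadjusted p below 0.05 in limma, and a median of -0.26. Of the 35, 32 had a negative difference and 3 a positive one, against 48.7% negative over all genes. The share of all genes lower at an unadjusted p below 0.05 in limma was 5.79%. Fen1, the flap endonuclease of lagging-strand synthesis, read 9.04, 8.81, 8.92 and 9.15 on TG1 to TG4 and 9.39, 9.44, 9.28 and 9.49 on WT1 to WT4, a difference of -0.42 ± 0.11 (adjusted p = 0.10 in limma). Ccne1, cyclin E1, which starts S phase, read 6.85, 6.11, 6.26 and 6.87 on TG1 to TG4 and 6.98, 7.55, 7.26 and 7.48 on WT1 to WT4, a difference of -0.80 ± 0.22 (adjusted p = 0.13 in limma). In both genes the groups did not overlap. The polymerase subunit Pola1 (-0.11) and the second cyclin E, Ccne2 (0.06), had the largest p of this list. The replication score was 0.01, -0.38, -0.31 and 0.09 on TG1 to TG4 and -0.05, 0.45, 0.02 and 0.17 on WT1 to WT4, so that the groups overlapped and the order of the arrays was not that of the mitosis score. Without WT1, 2 replication genes were called, the nucleotide synthesis genes Rrm2 and Tk1, which were named after their values were seen.

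**Figure D5:**
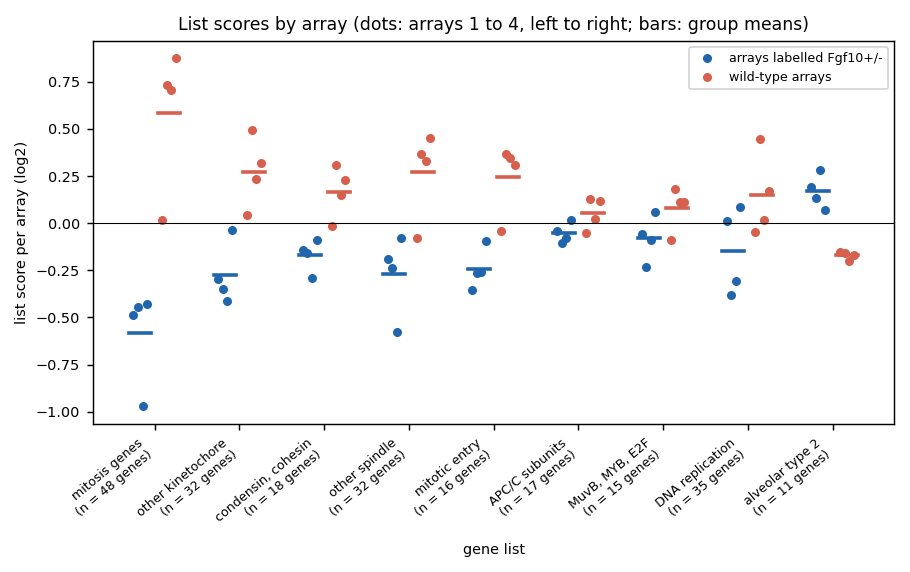
Score of each gene list on each array (y axis, mean over the list's genes of the log2 value minus the gene's mean over 8 arrays) for the mitosis genes, the 6 lists of other mitosis genes, DNA replication and alveolar type 2 cells (x axis, with the number of genes). Dots are arrays 1 to 4 of each group from left to right, blue for arrays labelled Fgf10 +/- and red for wild-type, and bars are group means; the mitosis scores ran from -0.97 to -0.43 in TG and from 0.02 to 0.88 in WT.

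Promoter letters and the size of the difference can be set side by side. Of the 28 tested mitosis genes whose windows held both motifs, 18 were called lower, with a median difference of -1.27. Of the 13 tested genes with a window that lacked at least 1 motif, 4 were called, with a median of -0.81. Among the 6 with neither motif in the window, 2 were called, Birc5 and Nusap1. The part of feature intensity in this split was not tested. Among the other mitosis genes, 2 of 29 with both motifs (6.9%) and 3 of 82 without both (3.66%) were called lower. Their medians were -0.57 and -0.22. Of the 34 other mitosis genes with neither motif, 3 were called (8.82%). Over all genes tested, 23 of 865 with both motifs (2.66%) and 50 of 12644 without both (0.395%) were called lower. Of these 23, 18 were the mitosis genes counted above and 2 were other mitosis genes. The 2.66% therefore mostly counts the same genes again and is no separate result. Outside the mitosis and replication lists, 805 tested genes held both motifs and 3 were called lower: the growth factor gene Igf1 (-0.80), the nuclear import gene Kpna2 (-0.61) and the matrix gene Postn (-0.48). The median difference over the 865 genes was -0.02.

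Markers of lung cell types were read beside these genes, and whether they bear on the mitosis result was not tested. Of 14 marker lists, 12 had scores that overlapped between the groups. Alveolar type 2 markers were higher in TG, with scores of 0.07 to 0.28 against -0.20 to -0.15 in WT. Of these 11 markers 5 rose in limma, among them the phosphate transporter Slc34a2 (0.72 ± 0.11, adjusted p = 0.010) and the lipid transporter Abca3 (0.48 ± 0.08, adjusted p = 0.015), and 0 fell. Of all genes 0.226% were called higher and 0.569% lower in limma, and 5.79% were lower at an unadjusted p below 0.05. Smooth muscle markers scored -0.21 to -0.08 in TG and -0.03 to 0.42 in WT, with 0 of 6 called and 4 lower at an unadjusted p below 0.05 in limma. Fibroblast markers scored -0.40 to 0.09 in TG and -0.17 to 0.27 in WT, and endothelial markers -0.13 to 0.11 and -0.11 to 0.13, each with 0 of 10 called in limma and with 2 and 1 lower at an unadjusted p below 0.05. Erythroid markers, which include dividing precursors, scored -0.39 to 0.42 in TG and -0.36 to 0.27 in WT, with 0 of 12 called and 1 higher at an unadjusted p below 0.05 in limma. Macrophage markers scored -0.37 to 0.00 in TG and -0.08 to 0.43 in WT, with 9 of 11 negative, 0 called and 4 lower at an unadjusted p below 0.05 in limma. Club and ciliated cell markers scored 0.05 to 0.34 in TG and -0.41 to 0.10 in WT, with 9 of 9 positive, 0 called and 3 higher at an unadjusted p below 0.05 in limma. In the other lists the lymphatic marker Mmrn1 fell (-0.67 ± 0.12, adjusted p = 0.021 in limma) and the cardiac muscle gene Myh7 rose (0.76 ± 0.12, adjusted p = 0.010). Neither stands for its list alone: 4 of the 5 lymphatic markers were negative and 1 positive. The 6 cardiac muscle markers were 3 negative and 3 positive, with a median of -0.01. WT4, the highest WT array in 26 of the 48 mitosis genes, also had the highest mesothelium score, 1.74, and the highest cardiac muscle score, 1.06.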

How the data were processed

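The authors deposited 1 table of log2 intensity values for 62976 features on 8 arrays. The submitters' processing notes name limma, without a version; background correction and normalization steps are not given in the sources used here. Array medians were equal, at 3.69, so no further normalization was applied. Symbols came from the platform annotation (31465 features with 1 symbol, 31511 with none); 29050 features were matched by accession to RefSeq (GRCm38.p6), which updated 2933 symbols. Features with a missing value (189) were left out. Each gene was represented by its brightest feature, and genes with a mean below the 30th percentile of features (2.76) were not tested. The number of arrays limits the precision.

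The groups were compared with limma 3.58.1 in R 4.3.3 (lmFit, eBayes with a variance trend), two-sided, with Benjamini-Hochberg adjustment over all 17234 genes; calls are adjusted p below 0.05. The fit was tried on simulated data in which each gene was drawn independently. There 4.58% of calls fell on unchanged genes, and 48.8% of genes changed by -1 were called. The real arrays differed in the same order over many genes, so these rates may not hold for them. Errors are SE of that fit unless called SD, and intervals are 95%. The members and lists were chosen with earlier results of these data known. In each role the genes with the smallest p, the highest mean and the largest p were named, and in other lists those with the smallest and largest p; any others are said to be picked afterwards, except those named in a count of calls, as a partner in a complex or for their promoter or marker role. Same-numbered arrays did not deviate together (correlations of -0.06 to 0.07), so the numbers were not treated as pairs. The alternatives were other filters, no variance trend, the mean of features, equal medians, array weights, a replicate block, Xist as a covariate and arrays left out; the split by Xist level was added after seeing the data.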

Additional observations from a re-analysis of the deposited data

Results flagged for a closer look

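Within each group of 4 arrays, the highest or lowest array was examined for the 48 tested mitosis genes, 24 other mitosis and replication genes, and their list scores. Cell type markers were not examined. Of these 178 groups in all, 16 had 1 array far from the other 3. Chance flags about 1 in 20 groups. The genes moved together on the arrays and the scores average the same genes, so the groups are not independent. The 16 therefore cannot be weighed against that rate. In 9 of the 16 the far array was WT1, below the other WT arrays. WT1 read 8.58 for Ccna2 (others 9.73 to 9.75), 10.28 for Birc5 (10.94 to 11.07), 4.35 for Kif18b (5.38 to 5.57), 3.73 for Cep55 (5.20 to 5.50), 6.73 for Ccnf (7.99 to 8.14) and 7.91 for Fbxo5 (8.74 to 8.89). Its scores were 0.056 for cyclins and kinases (others 0.79 to 0.89), -0.116 for kinetochore and checkpoint genes (0.62 to 0.71) and -0.039 for the kinases and phosphatases of mitotic entry (0.31 to 0.36). TG3 lay below the other TG arrays for Top2a, at 4.50 (others 6.15 to 6.39), and for Cdc16, at 10.98 (11.10 to 11.12), and its scores were -0.961 for the APC/C axis (-0.42 to -0.32) and -0.972 for all mitosis genes (-0.49 to -0.43). TG1 read 1.88 for Kif15 (others 2.88 to 2.98) and 7.17 for Ect2 (6.79 to 6.83), and WT4 read 4.99 for Lin9 (5.95 to 6.12).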

How the results depend on the processing

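The median difference of the mitosis genes ran from -1.38 (without WT1) to -1.08 (without TG3) as single arrays were left out, and was -1.51 and -1.02 in the low and high Xist arrays, for which no calls were made. In every alternative with calls, 0 mitosis genes were called higher. The count called lower was 23 to 27 under both filters, equal medians and array weights, 21 with the mean of features, 19 with Xist as a covariate, 0 without the variance trend, 28 without WT1 and TG3, and 6 to 31 as single arrays were left out. The fit with the replicate block gave 26, of which 25 were also called without it, with 116 for all genes called; it changed no count by over 1.5 times. Other mitosis genes called lower numbered 0 without the variance trend, 2 with the mean of features, 3 with Xist as a covariate, 8 without WT1 and TG3, and 0 to 13 as single arrays were left out; replication genes numbered 0 to 2 in those runs. The count of all genes called was 137, and was 1 without the trend, 83 with Xist and 34 to 173 with arrays left out. Apart from the fits with fewer arrays, the causes were not tested.

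The genes that changed sign had differences between -0.11 and 0.06 with all arrays. With arrays left out, Cenpx ran from -0.114 to 0.066, Pds5b from -0.072 to 0.053, Cep55 from -0.43 to 0.16, Ensa from -0.115 to 0.046, Cdc16 from -0.0094 to 0.060, Lin9 from -0.290 to 0.090, Pola1 from -0.326 to 0.039 and Ccne2 from -0.32 to 0.34. Cenpx was -0.039 with array weights, Cep55 0.15 and Ensa 0.067 with the mean of features, and Ensa 0.011 and Lin9 0.092 without WT1 and TG3. Over the alternatives of the tested mitosis genes and the 24 other genes, 1016 values kept direction and side of the threshold, 153 lost the call, 18 gained it and 34 changed sign. Dim features have no stated background level, which limits what Aurkb, Kif15, Ttk, Cenpf and Cenpm can show.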
